A study of Gallus gallus with 6 samples.

Results

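The genes described here make, move and export cholesterol or regulate its synthesis. Their messenger RNA was measured in the mucosa that lines the jejunum, the middle small intestine, of heated breeder hens. The genes were chosen by symbol for known roles in sterol synthesis, uptake, storage and efflux, with earlier results of these data known. Of the 32 chosen, 28 stood in the deposited table, out of 15656 genes with a usable symbol. All 28 had a mean FPKM (a fragment count scaled for gene length and library size) of at least 1 over the 6 libraries and so entered the test. TM7SF2, EBP, NPC1L1 and SOAT2 were not analysed here, so uptake from the lumen (NPC1L1) and storage as ester (SOAT2) have no gene among the 28. Leuang Hang Kao breeder hens made up the heat-adapted group and SUT breeder hens the heat-sensitive one, all 28 weeks old and held at 36 °C for 6 h, with 3 libraries in each group. RNA of 4 hens was pooled for each library, so that 12 of the 25 hens housed per group were sampled and no value belongs to a single hen. Both groups were heated. The sample labels give 1 breed for each group, whereas the series' design text has the hens assigned to the groups at random; these statements conflict, and the groups are used here as labelled. With 1 breed a group, breed and heat tolerance cannot be told apart, and no unheated library enters the comparison.

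Cholesterol is built from acetyl-CoA along the mevalonate pathway, which leads through the isoprenoid farnesyl diphosphate to squalene, and then along a second stretch that closes squalene into lanosterol and trims it to cholesterol. As worked out in mammals, SREBP-2, the product of SREBF2, switches on nearly every enzyme of both stretches when membranes of the endoplasmic reticulum run short of sterol. SCAP carries the factor to the Golgi for cleavage, and the INSIG proteins hold it back when sterol is plentiful. The absorbing cell of the intestine takes sterol from the lumen, returns part of it through the half-transporters ABCG5 and ABCG8, and passes the rest on in lipoproteins and high-density particles.

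Heat-sensitive replicate 2 stood apart in the heat shock genes: the summed FPKM of the 8 listed genes found was 14887 there, 3624 and 3785 in its companions, and 2377 to 3051 in the heat-adapted group. The small heat shock protein gene HSPB9 was at 39.5, 3268 and 51.1 FPKM in heat-sensitive replicates 1, 2 and 3. In heat-adapted replicates 1, 2 and 3 it was at 5.99, 6.54 and 7.02, and the gene was picked after its values were seen. The deposited read counts, which sum to between 10829957 and 13070796 per library, follow another row order than the gene symbols. For 200 genes a count row could be found from the heat-sensitive profile, where deliberately wrong ratios gave 17.1 on average. For these the ratio of read count to FPKM scattered by a median of 0.294 to 0.499 on the log2 scale among the heat-adapted columns. FPKM and read counts thus disagree for the heat-adapted group beyond any scaling, and which set holds the labelled libraries is not stated. Every value for a named gene below is from the FPKM columns.

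The comparison asked how the sterol genes of heat-adapted hens stood against those of heat-sensitive hens at the same temperature. Group means were higher in the heat-adapted libraries for 25 of the 28 genes, and the largest differences belonged to the feedback regulator INSIG1, the reductase gene HSD17B7, the isomerase gene IDI1 and the sterol carrier gene STARD4. No single gene passed the test across all genes: by limma on log2(FPKM + 1), 0 of 28 had an adjusted p below 0.05, where 0.0949% of the 11587 genes tested did (11 genes). At an unadjusted p below 0.05 there were 7 of 28, or 25%, all higher in the heat-adapted libraries, against 7.13% of all genes in that direction and 10.9% in the other. The 7 were INSIG1, STARD4, SQLE, HSD17B7, CYP51A1, SC5D and SREBF1. Because the sterol genes were chosen with earlier results known, their shares are set beside those of all genes as description, without a test. The 3 heat-adapted values lay above the 3 heat-sensitive ones in 8 of 28 genes, these 7 and ABCG5, where 9.0% of all genes showed that order. The opposite order was seen in 0 of 28, against 12.9% of all genes. The median log2 difference, heat-adapted minus heat-sensitive, was 0.35 over the sterol genes and -0.06 over all genes tested, of which 41.7% had a positive difference. After rescaling FPKM to TPM these medians were 0.47 and 0.05, so the gap was 0.40 as deposited and 0.42 with TPM. With TPM 14 of 28 genes had an unadjusted p below 0.05, all higher, against 11.6% of all genes higher and 6.05% lower. The number at an unadjusted p below 0.05 depended on single libraries: it was 2 of 27 without heat-sensitive replicate 2 (INSIG1 and STARD4, both higher; 4.19% of all genes were higher in that fit) and 3 of 28 without heat-adapted replicate 1 (all higher; 4.57% of all genes). Without heat-adapted replicate 2 there were 12 of 28, of which 11 were higher (5.17% of all genes) and 1, ABCG1, was lower (9.81% of all genes).

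**Figure D1:**
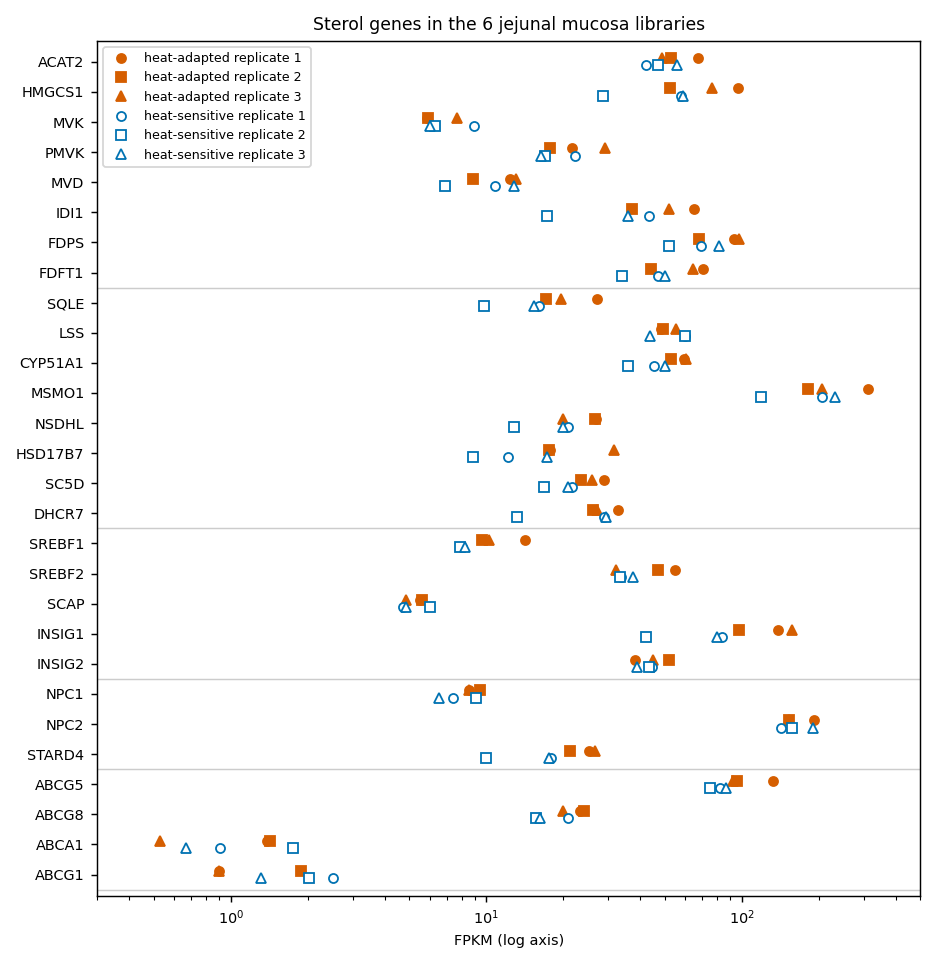
FPKM of the 28 sterol genes (log axis) in each library, ordered by role from the first steps of synthesis (top) to efflux (bottom); filled orange symbols are heat-adapted, open blue symbols heat-sensitive, and the shape gives the replicate. The open square of heat-sensitive replicate 2 is the leftmost point in 17 of 28 rows, and the groups are fully separated in 8.

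**Figure D2:**
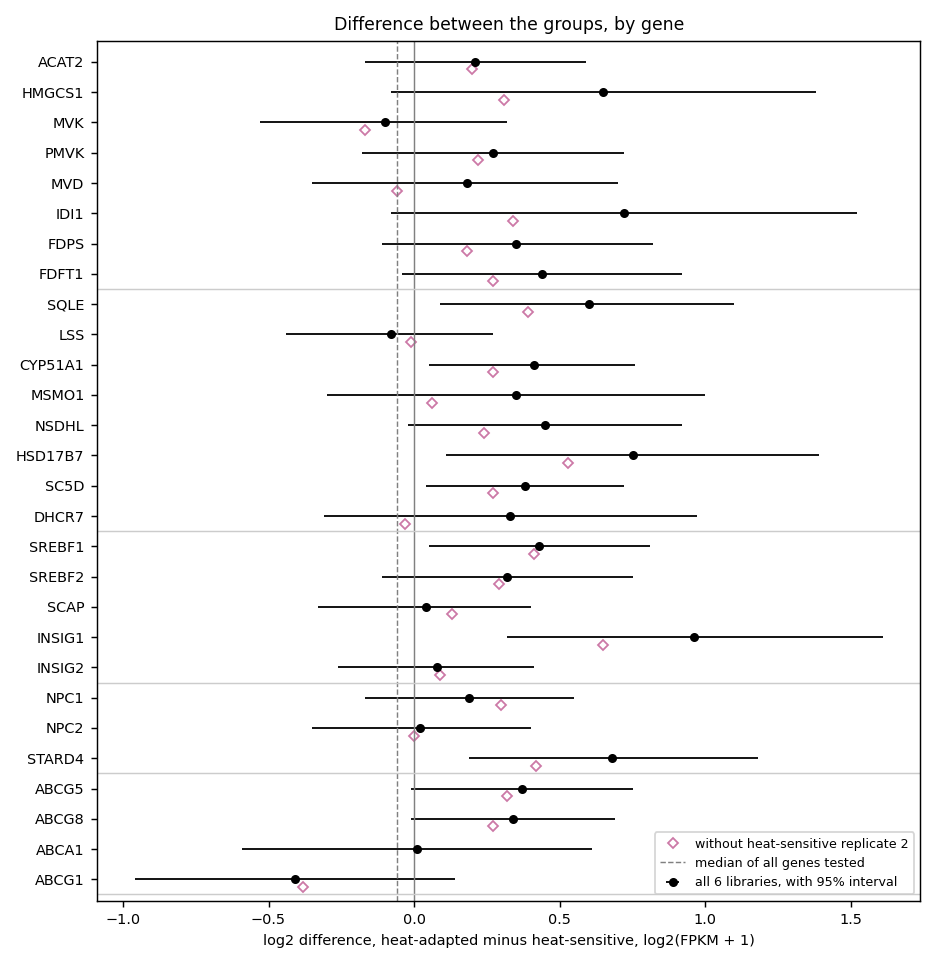
Log2 difference of each sterol gene, adapted minus sensitive in log2(FPKM + 1) units, with its 95% interval (black, 6 libraries) and the estimate without heat-sensitive replicate 2 (open diamonds; ABCA1 then falls under the filter). Of the 28 estimates 25 lie above 0, and the median moves from 0.35 to 0.27 when that library is left out.

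The first stretch of synthesis, from acetyl-CoA to squalene, was represented by 8 genes, of which 7 had a higher mean in the heat-adapted libraries and none separated the groups. Of all genes, 41.7% had a positive difference, and 9.0% separated the groups with heat-adapted values higher and 12.9% with them lower. The median log2 difference of the 8 was 0.31, and 0.21 without heat-sensitive replicate 2. ACAT2, the cytosolic thiolase that joins acetyl-CoA units, was at 67.5, 52.96 and 48.6 FPKM in heat-adapted replicates 1, 2 and 3, in that order, and 42.3, 46.9 and 55.9 in heat-sensitive replicates 1, 2 and 3. These ranges overlapped, and the log2 difference was 0.21 (SE 0.17, adjusted p = 0.532). HMGCS1, the synthase that adds the next acetyl unit to give HMG-CoA, was at 96.6, 52.3 and 76.5 among the heat-adapted and 58.05, 28.6 and 59.1 in the heat-sensitive libraries. Here the lowest heat-adapted library, replicate 2, lay below 2 heat-sensitive ones, and heat-sensitive replicate 2 was far under the rest (log2 difference 0.65 (SE 0.32, adjusted p = 0.322); 0.31 without it). The kinases MVK and PMVK, which phosphorylate mevalonate in turn, differed by -0.10 and 0.27 with intervals that included 0, and MVK was the only gene of this stretch with a negative estimate.

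MVD, the decarboxylase that yields isopentenyl diphosphate, was among the low genes of the pathway at 12.4, 8.90 and 13.02 in the heat-adapted and 10.8, 6.87 and 12.8 in the heat-sensitive libraries. It did not separate the groups (log2 difference 0.18, 95% interval -0.35 to 0.70), and the estimate was -0.06 without heat-sensitive replicate 2. IDI1, the isomerase of isopentenyl diphosphate, had the widest ratio of highest to lowest library among the synthesis enzymes, 3.76: 64.8, 37.1 and 51.7 in the heat-adapted libraries against 43.2, 17.2 and 35.9 among the heat-sensitive libraries. Its log2 difference was 0.72 (SE 0.34, adjusted p = 0.316), and 0.34 without that library. FDPS, which condenses these units to farnesyl diphosphate, was at 93.2, 68.1 and 97.6 and 69.2, 51.9 and 81.7. FDFT1, the squalene synthase that commits farnesyl diphosphate to sterol, was at 70.7, 44.2 and 64.5 and 46.8, 33.99 and 49.9. In both genes heat-adapted replicates 1 and 3 were the highest libraries and heat-sensitive replicate 2 the lowest, with log2 differences of 0.35 (SE 0.20, adjusted p = 0.389) and 0.44 (SE 0.21, adjusted p = 0.31).

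In the second stretch, from squalene to cholesterol, 7 of 8 genes had a higher heat-adapted mean and the median log2 difference was 0.39. The groups separated in 4 of the 8, all higher in the heat-adapted libraries, where 9.0% of all genes showed that order. Heat-sensitive replicate 2 was the lowest of the 6 libraries in 7 of the 8, against 19.0% of all genes. Without heat-sensitive replicate 2 the median was 0.25. SQLE, the epoxidase that opens this stretch, was at 27.04, 17.2 and 19.6 FPKM among the heat-adapted and 16.1, 9.82 and 15.4 in the heat-sensitive libraries. The gap between heat-adapted replicate 2 and heat-sensitive replicate 1 was narrow, and the log2 difference was 0.60 (SE 0.22, adjusted p = 0.223). LSS, the cyclase that forms lanosterol, did not share this order: it was at 48.3, 49.2 and 55.2 against 59.8, 59.8 and 43.8, highest in heat-sensitive replicates 1 and 2, with a log2 difference of -0.08 (95% interval -0.44 to 0.27). CYP51A1, the lanosterol demethylase, was at 59.6, 52.9 and 60.4 against 45.1, 35.7 and 50.01, which separated the groups (log2 difference 0.41 (SE 0.16, adjusted p = 0.233)).

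The next enzymes remove the methyl groups at carbon 4 of the ring system. MSMO1, the methylsterol oxidase, had the highest mean FPKM over the 6 libraries of the 28 genes, at 313, 182 and 205 in the heat-adapted and 206, 118 and 231 in the heat-sensitive libraries. It made up 24.5% to 31.7% of the summed FPKM of the 16 synthesis genes in a library. The heat-sensitive replicate 3 exceeded heat-adapted replicates 2 and 3, and the estimate of 0.35 (adjusted p = 0.547) was 0.06 without heat-sensitive replicate 2. NSDHL, the sterol dehydrogenase, was at 26.98, 26.7 and 19.9 and 20.9, 12.8 and 19.98, with heat-adapted replicate 3 inside the heat-sensitive range (log2 difference 0.45 (SE 0.21, adjusted p = 0.293)). HSD17B7, which reduces the resulting ketone, was at 17.7, 17.6 and 31.7 and 12.2, 8.88 and 17.4. Its groups separated, although heat-adapted replicates 1 and 2 lay close to heat-sensitive replicate 3, and the high mean rested on heat-adapted replicate 3 (log2 difference 0.75 (SE 0.28, adjusted p = 0.227)). SC5D, a desaturase of the sterol ring, was at 28.8, 23.4 and 25.9 and 21.7, 16.8 and 20.9 and separated the groups within a narrow range of levels (log2 difference 0.38 (SE 0.15, adjusted p = 0.241)). DHCR7, the reductase of the last step, was at 32.7, 26.2 and 27.1 and 28.98, 13.2 and 29.4. Heat-sensitive replicates 1 and 3 lay inside the heat-adapted range, and the log2 difference of 0.33 (95% interval -0.31 to 0.97) was -0.03 without that library.

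Summed over the 16 synthesis genes, FPKM was 986, 683 and 834 in heat-adapted replicates 1, 2 and 3 and 712, 484 and 746 in heat-sensitive replicates 1, 2 and 3. The second library was the lowest of its own group in 12 of 16 synthesis genes in both groups, whereas it was the lowest of its group in 22.9% of all genes among the heat-adapted and in 33.6% among the heat-sensitive libraries. The labels do not say that a replicate number pairs libraries across the groups. Heat-sensitive replicate 2 was the lowest of all 6 libraries in 17 of 28 sterol genes, against 19.0% of all genes. Heat-adapted replicate 1 was the highest of all 6 libraries in 13 of 28 sterol genes, against 11.0% of all genes.

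Among the regulators all 5 had a positive difference, with a median of 0.32. Of the 5, 2 separated the groups, both higher in the heat-adapted libraries, where 9.0% of all genes showed that order. Leaving out heat-adapted replicate 1 took that median to 0.18, and leaving out replicate 3 of the same group to 0.49. INSIG1, which retains SREBP in the endoplasmic reticulum and is itself induced by SREBP in mammals, had the largest difference of the 28 genes. It was at 139, 97.3 and 157 FPKM among the heat-adapted and 83.6, 42.02 and 79.97 in the heat-sensitive libraries. Every heat-adapted value exceeded every heat-sensitive one, heat-sensitive replicate 2 being the lowest. Its log2 difference was 0.96 (SE 0.28, adjusted p = 0.161), with a 95% interval 0.32 to 1.61, and 0.65 without that library (adjusted p = 0.314). INSIG2, which shares this function, was at 38.2, 51.8 and 44.9 against 44.6, 43.5 and 39.02 and differed by 0.08 (95% interval -0.26 to 0.41). The ratio of INSIG1 to INSIG2 FPKM was 3.63, 1.88 and 3.50 in the heat-adapted libraries and 1.87, 0.967 and 2.05 in the heat-sensitive ones, so heat-adapted replicate 2 stood with the heat-sensitive libraries.

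SREBF1, whose SREBP-1 product mainly drives fatty acid synthesis in mammals, was at 14.2, 9.62 and 10.2 among the heat-adapted and 8.0, 7.89 and 8.28 in the heat-sensitive libraries. The heat-sensitive values were within 0.4 FPKM of each other and the groups separated (log2 difference 0.43 (SE 0.17, adjusted p = 0.242), and 0.27 without heat-adapted replicate 1). SREBF2 was at 54.8, 46.9 and 32.2 and 33.7, 33.3 and 37.5, with heat-adapted replicate 3 the lowest of the 6 libraries (log2 difference 0.32 (SE 0.19, adjusted p = 0.408)). Without heat-adapted replicate 1 this difference was 0.16, and without heat-adapted replicate 3 it was 0.53. Messenger RNA of SREBF2 was 3.15 to 4.87 times as abundant as that of SREBF1 in every library, per length. SCAP, the escort of SREBP, was low at 5.50, 5.62 and 4.86 and 4.71, 6.03 and 4.83 and its ranges overlapped (log2 difference 0.04, 95% interval -0.33 to 0.40).

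Of the genes that move sterol within the cell, STARD4, a cytosolic sterol carrier, was at 25.1, 21.2 and 26.5 FPKM among the heat-adapted and 17.97, 9.97 and 17.6 among the heat-sensitive libraries. The groups separated, with heat-sensitive replicate 2 again the lowest (log2 difference 0.68 (SE 0.22, adjusted p = 0.181), and 0.42 without it). NPC1 and NPC2, which hand cholesterol out of lysosomes, did not show this: NPC2 was at 191, 154 and 153 and 143, 158 and 190.2, a log2 difference of 0.02 (95% interval -0.35 to 0.40). NPC1 was at 8.53, 9.45 and 8.58 and 7.44, 9.10 and 6.55, a log2 difference of 0.19 (95% interval -0.17 to 0.55), with heat-sensitive replicate 2 inside the heat-adapted range. NPC2 messenger RNA was 16.3 to 29 times as abundant as that of NPC1 per length.

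The half-transporters ABCG5 and ABCG8, which together pump sterol back into the lumen, were the abundant efflux genes. ABCG5 was at 132, 96.01 and 92.1 in the heat-adapted and 82.3, 75.04 and 86.6 in the heat-sensitive libraries, a separation with a log2 difference of 0.37 (SE 0.17, adjusted p = 0.287). ABCG8 was at 23.3, 24.2 and 19.99 and 20.9, 15.7 and 16.2, where heat-sensitive replicate 1 lay above heat-adapted replicate 3 (log2 difference 0.34 (SE 0.15, adjusted p = 0.284)). Although both proteins form 1 pump, ABCG5 was 3.95 to 5.67 times as abundant as ABCG8 per length, and these ratios overlapped between the groups. The 2 genes lie next to each other in RefSeq's GRCg7b gene table with the non-coding LOC107052929 between them, and the strand setting of the counting is not given, so shared reads there are uncertain. ABCA1, which loads cholesterol onto apolipoprotein A-I, was near the filter at 1.39, 1.43 and 0.53 and 0.91, 1.75 and 0.67, a log2 difference of 0.01 with a wide 95% interval -0.59 to 0.61. ABCG1, which exports to high-density particles, was at 0.9, 1.89 and 0.9 and 2.51, 2.02 and 1.31 and had the most negative estimate of the 28 genes, -0.41 (SE 0.24, adjusted p = 0.402).

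The 28 genes did not share 1 pattern over the libraries. Their levels in heat-sensitive replicate 2 differed between roles in the median, but also between genes of the same role. The comparison of that library with its 2 companions was chosen after the values were seen, rests on 1 library and carries no test. Its log2 level minus the mean of heat-sensitive replicates 1 and 3 had a median of -0.58 over the 16 synthesis genes, -0.05 over the other 12 sterol genes and 0.00 over all genes tested. Differences of -0.5 or lower were seen in 9 of 16 synthesis genes, in 2 of the other 12 sterol genes (INSIG1 and STARD4) and in 6.63% of all genes. The synthesis genes ACAT2, PMVK and MVK were at -0.05, -0.16 and -0.19. IDI1, DHCR7 and HMGCS1 were the lowest at -1.15, -1.09 and -1.01, followed by INSIG1 at -0.94, MSMO1 at -0.88 and STARD4 at -0.78. The messenger RNAs of SREBF1, SREBF2 and INSIG2 were within 0.1 of their companions (-0.04, -0.09 and 0.06), and SCAP, NPC1 and LSS were above them (0.29, 0.34 and 0.22). ABCA1, near the filter, was the furthest above, at 0.62.

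**Figure D3:**
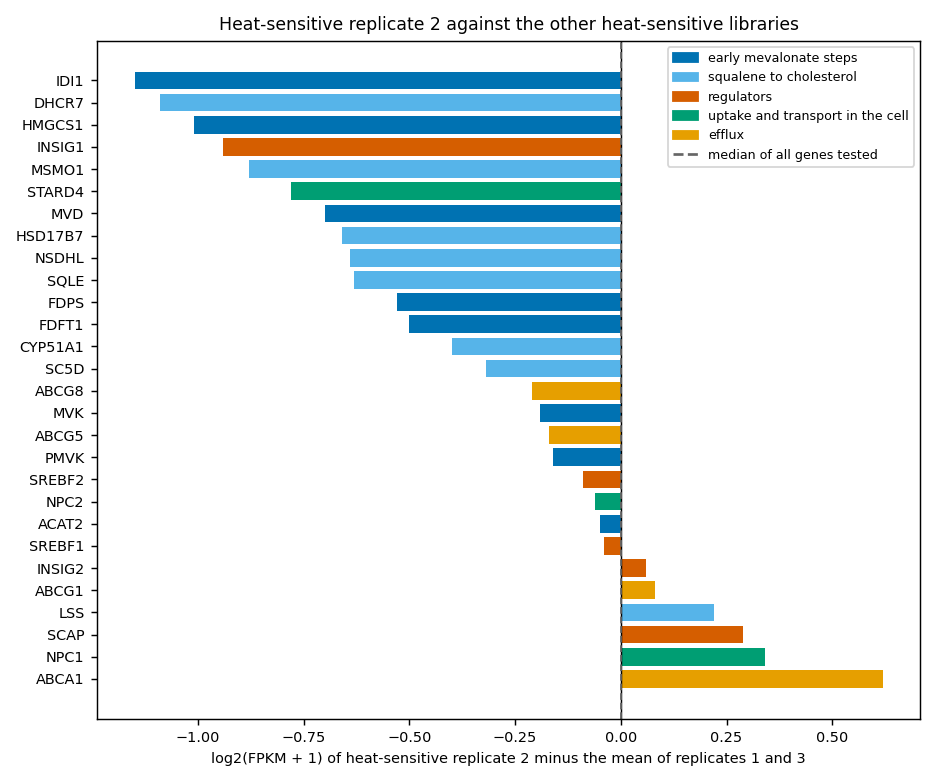
Log2(FPKM + 1) of heat-sensitive replicate 2 minus the mean of heat-sensitive replicates 1 and 3 for each sterol gene, coloured by role; the dashed line is the median of all genes tested. The 14 lowest bars, from -1.15 to -0.32, are 12 synthesis genes, INSIG1 and STARD4, while SREBF1, SREBF2, SCAP and INSIG2 lie near or above 0.

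Lists of other genes around the pathway had medians nearer to that of all genes, although single members stood out. Of 22 further sterol genes, 0 passed the test, 10 had a positive log2 difference, and the median log2 difference was -0.04, close to the -0.06 of all genes. POR, the reductase that feeds electrons to SQLE and CYP51A1, was at 100.3, 71.8 and 68.5 FPKM in the heat-adapted and 50.9, 46.01 and 61.2 in the heat-sensitive libraries (log2 difference 0.59 (SE 0.18, adjusted p = 0.175)). SCARB1, a receptor that takes up cholesterol from high-density particles, was at 642, 448 and 228 and 156, 97.3 and 229 (log2 difference 1.41 (SE 0.44, adjusted p = 0.188)), with heat-adapted replicate 3 just below heat-sensitive replicate 3. MBTPS2, a protease that cleaves SREBP, was low and separated the groups at 2.28, 1.98 and 1.83 and 1.47, 1.12 and 1.19 (log2 difference 0.42, adjusted p = 0.256). At an unadjusted p below 0.05 by limma, 3 of the 22 were higher and 1 was lower, against 7.13% and 10.9% of all genes. The lower one, LBR, separated the groups the opposite way at 37.4, 39.9 and 38.2 and 55.2, 43.5 and 46.4 (log2 difference -0.32, adjusted p = 0.269).

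The branch from farnesyl diphosphate to other isoprenoids held 8 tested genes with 0 passing and a median of 0.06. Its leading genes were the prenyltransferase gene PGGT1B (0.28), the geranylgeranyl diphosphate synthase gene GGPS1 (-0.27) and COQ2 of ubiquinone synthesis (0.37), with adjusted p = 0.329, 0.334 and 0.361 by limma. The 9 oxysterol receptor genes and targets, 5 of which are sterol genes already described, had a median of 0.13. LPCAT3, a phospholipid remodelling enzyme, led them with a log2 difference of 0.65 (SE 0.23, adjusted p = 0.211). Among 11 tested SREBP-1 targets of fatty acid synthesis 0 passed and the median was 0.06. The malic enzyme gene ME1 separated the groups at 22.8, 19.2 and 26.9 and 16.5, 14.1 and 13.2 (log2 difference 0.61 (SE 0.16, adjusted p = 0.135)), and the lipase gene PNPLA3 and the desaturase gene FADS2 differed by 0.67 and -0.40 (adjusted p = 0.209 and 0.351).

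Of 6 enzymes of oxysterols and bile acids 0 passed, 2 had a positive difference and the median was -0.30. CYP46A1, a cholesterol hydroxylase known from brain in mammals, was at 44.9, 49.2 and 53.3 in the heat-adapted and 26.8, 22.9 and 36.2 in the heat-sensitive libraries and separated the groups (log2 difference 0.78 (SE 0.18, adjusted p = 0.107)). CH25H, which makes another side-chain oxysterol, had the opposite sign at 2.79, 4.14 and 6.63 and 7.71, 12.3 and 6.10 (log2 difference -0.82 (SE 0.30, adjusted p = 0.219)), highest in heat-sensitive replicate 2. CYP39A1, an oxysterol hydroxylase, was at 2.20, 1.95 and 1.59 and 2.88, 3.25 and 2.37 (log2 difference -0.39 (SE 0.18, adjusted p = 0.295)).

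**Figure D4:**
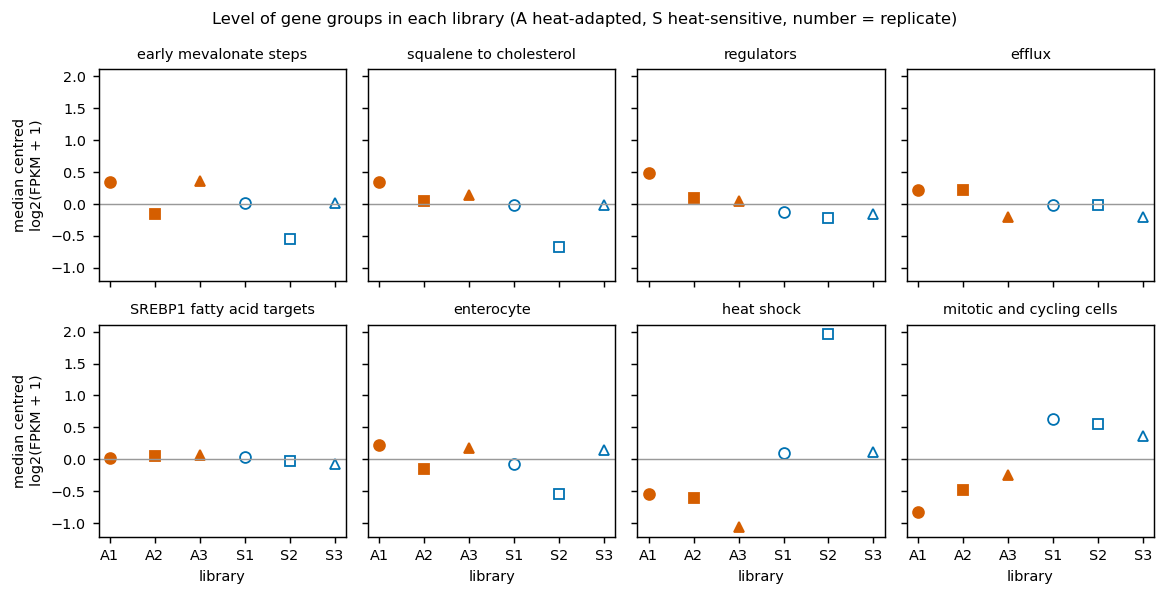
Median over the genes of a list of the log2(FPKM + 1) level, each gene centred on its mean over the 6 libraries (A heat-adapted, S heat-sensitive, numbered by replicate). Both stretches of synthesis and the enterocyte markers are lowest in S2, at -0.54, -0.68 and -0.54, where the heat shock genes are highest at 1.96, while the SREBP-1 fatty acid targets lie between -0.08 and 0.07 in all 6 libraries.

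The markers of the enterocyte, the absorbing cell, were all present. Heat-sensitive replicate 2 was the lowest library in 7 of the 13, against 12 of the 16 synthesis genes and 19.0% of all genes. VIL1, the villin gene, was at 667, 552 and 512 in the heat-adapted and 368, 268 and 455 in the heat-sensitive libraries, and the glucose carrier gene SLC5A1 at 935, 1024 and 570.4 and 427, 362 and 439.9. HNF4A, which encodes a transcription factor of the gut epithelium, was at 50.8, 58.7 and 54.3 and 43.8, 30.4 and 37.7. These 3 were lowest in heat-sensitive replicate 2, whereas the sucrase-isomaltase gene SI, at 398, 556 and 279.6 and 196, 269 and 260.4, was lowest in heat-sensitive replicate 1, and the aminopeptidase gene ANPEP, at 915, 742 and 809 and 758, 893 and 1164, in heat-adapted replicate 2. Their median centred level was 0.22, -0.15 and 0.18 in the heat-adapted and -0.08, -0.54 and 0.15 in the heat-sensitive libraries, beside 0.35, -0.07, 0.24, 0.01, -0.55 and 0.00 for the 16 synthesis genes in the same order. The summed FPKM of the enterocyte markers was 33946 to 51016 in the heat-adapted and 20386 to 42514 in the heat-sensitive libraries, lowest in heat-sensitive replicate 2. Most of it came from FABP1, FABP2 and APOA1. Their log2 levels in heat-sensitive replicate 2 minus the mean of heat-sensitive replicates 1 and 3 were -1.3, -0.76 and -1.08. The same measure was 0.25 for SI and -0.07 for ANPEP. Of the 13 markers, 11 had a positive difference (median 0.40) and 0 passed the test. Without heat-sensitive replicate 2 the difference was positive in 9 of 13, with a median of 0.20. The groups separated in 5 of the 13, all higher in the heat-adapted libraries, where 9.0% of all genes showed that order. At an unadjusted p below 0.05 by limma, 4 of the 13 were higher and 0 lower, against 7.13% and 10.9% of all genes. The 10 cycling cell markers all had a negative difference (median -1.0), where 41.7% of all genes had a positive one. Their summed FPKM was 118 to 184 against 282 to 334. All 10 separated the groups, where 12.9% of all genes were lower in that way. The 9 smooth muscle markers were also lower (median -1.20, with sums of 165 to 451 against 416 to 947, and 4 of 9 separating the groups). So were the 7 B and plasma cell markers (median -0.78, with sums of 13382 to 20636 against 28203 to 31645). Most of these last sums was IGLL1 alone, at 11081 to 18007 against 24487 to 27131. Of the 7 markers, 3 separated the groups, where 12.9% of all genes were lower in that way. Medians of the fibroblast, T cell, endocrine, goblet and liver lists were -0.44, -0.30, -0.37, 0.18 and 0.62. They rested in part on single libraries: with 1 library left out in turn they ran from -0.63 to -0.25, -0.42 to -0.18, -0.44 to -0.27, 0.01 to 0.57 and 0.12 to 1.20, in the same order. No marker of these lists was at 0 in every library. The smooth muscle, fibroblast and endocrine lists had their highest median centred level in heat-sensitive replicate 2, at 0.88, 0.58 and 0.37. Smooth muscle was also high in heat-sensitive replicate 3, at 0.66. The cycling, B and plasma, T cell, goblet and liver lists were highest in other libraries. The 8 heat shock genes all had a negative difference (median -1.33, and -0.66 without heat-sensitive replicate 2). Of the 8, 5 separated the groups, where 12.9% of all genes were lower in that way. The part of the cell type markers, and of the heat shock genes, in the sterol differences was not tested. In such bulk tissue, fewer cells of a type and less RNA per cell cannot be told apart.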

How the data were processed

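Poly(A) RNA or RNA freed of ribosomal RNA was sequenced from 6 pools of jejunal mucosa, per the labels' protocols. HISAT2 (2.0.1), HTSeq (0.6.1), cutadapt (1.9.1), DESeq2 and genome build GRCg6a are named, without order or settings, in the submitters' processing notes. The annotation and strand setting are not given in the sources used. Per the file headers, the deposited table holds read counts and FPKM, which the authors gave to 2 decimals. The deposited read counts are treated as estimated counts, since 13.2% to 13.7% of them per library are not whole, and serve only for library totals and for the check of row order. In that check a count row was named where log2 ratios over the heat-sensitive libraries matched within 0.004 and no other row lay within 0.02. Rows whose symbol had become a date (19) or was blank (1) were left out.

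The test was limma (version 3.58.1, R 4.3.3) with trend, robust estimation and no block, fitted to log2 of FPKM plus a pseudocount of 1 for every gene whose mean FPKM reached 1. Tests were 2-sided and p-values were adjusted over all genes by Benjamini-Hochberg, with a threshold of 0.05. Fold differences on this scale understate changes of low genes. Values are FPKM with SD or SE over 3 libraries per group, each a pool of separate hens; the labels mention no molecular identifiers. The test was checked on simulated data. The members and lists were chosen with earlier results of these data known, so lists are described by counts and medians without a test. All members are named; of the pathway lists and the enterocyte markers the 3 genes of smallest p are named, as the rule for named genes asks for every list. The remaining marker lists are given by medians and sums without their leading genes, except for IGLL1. HSPB9, LBR, SI, ANPEP, FABP1, FABP2, APOA1, IGLL1 and ALB were picked after their values were seen. RefSeq's gene table (assembly GRCg7b, another build) matched 27 of the 28 symbols and served for names and neighbours. No sequence or coordinate is given. Alternatives changed the pseudocount, filter, scaling, moderation, block and each library.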

Additional observations from a re-analysis of the deposited data

How the results depend on the processing

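No sterol gene passed the adjusted threshold under any of the 15 alternatives to the limma test; the lowest adjusted p ranged from 0.059 (INSIG1, replicate block) to 0.444 (HSD17B7, without heat-adapted replicate 1). Of 417 estimates of single genes under alternatives 405 kept their sign or rounded to 0. The 12 that did not belonged to 8 genes: LSS was 0.04 with TPM, and with 1 library left out in turn the log2 difference ran from -0.06 to 0.35 for MVD, -0.21 to 0.05 for MVK, -0.03 to 0.52 for DHCR7, -0.02 to 0.13 for SCAP, -0.03 to 0.18 for INSIG2, -0.08 to 0.14 for NPC2 and -0.15 to 0.22 for ABCA1. The cause was not tested. The median of all sterol genes lay between 0.25 (without heat-adapted replicate 1) and 0.47 (TPM). That of the genes of transport within the cell, NPC1, NPC2 and STARD4, was 0.19 in the main fit. It was 0.30 with TPM, 0.26 with quantile normalization and 0.14 to 0.30 with 1 library left out. The regulator median of 0.32 was 0.18 to 0.49, and the efflux median of 0.18 was 0.06 to 0.32, with 1 library left out; the efflux median was 0.36 with a mean FPKM of at least 5, where 2 of its 4 genes remain. With 1 library left out the medians of the other pathway lists ran from -0.03 to 0.09 (further sterol genes), -0.03 to 0.15 (isoprenoid branch), 0.04 to 0.28 (oxysterol receptors and targets), 0.01 to 0.14 (SREBP-1 targets) and -0.35 to -0.16 (oxysterol and bile acid enzymes). The 11 calls over all genes became 17 and 20 with pseudocounts of 0.1 and 0.5, 7 with no filter and 7 with a mean FPKM of at least 5, 38 with TPM, 20 with median-of-ratios scaling and 6 to 64 with 1 library left out. Deviations of same-numbered libraries from their group means correlated at -0.161, 0.11 and -0.191 over genes. The labels do not say whether replicate numbers pair the libraries, and these correlations cannot decide it. With the replicate block 46 genes were called, 0 of them sterol genes. ABCA1 has no value without heat-sensitive replicate 2, nor have ABCA1 and ABCG1 with a mean FPKM of at least 5. With 3 libraries a group, intervals are wide: that of INSIG1 runs from 0.32 to 1.61.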

Other observations

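ALB, the serum albumin gene and a liver marker, was at 0.81, 53.4 and 0.63 FPKM in heat-adapted replicates 1, 2 and 3 and at 0.71, 0.66 and 0.48 in the heat-sensitive libraries, so that heat-adapted replicate 2 stood alone. The summed FPKM of the 6 liver markers found was 88 in that library and 13 to 36.9 in the other 5. That library was the highest of the 6 in 3 of 28 sterol genes and in 16.9% of all genes.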
